A study of Mus musculus with 4 samples.

Results

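The genes around Batf2 on mouse chromosome 19 were examined in macrophages that lack Batf2, a basic leucine zipper transcription factor of the AP-1 superfamily. All entries whose locus lay wholly between positions 5800000 and 6500000 of chromosome 19 were taken, Batf2 itself apart. They numbered 50 entries of 37 genes, out of 24135 symbols or unnamed entries in the tables. Within this stretch the choice used position alone and no measured value. The stretch itself was chosen with earlier results of these data known. RNA was sequenced from 4 cultures of C57BL/6 mouse bone marrow cells, grown for 6 days with 10 ng/ml of GM-CSF and harvested as adherent macrophages. The groups were Batf2-/- (KO) at 3 h, wild type (WT) at 3 h, KO at 0 h and WT at 0 h after 100 ng/ml of lipopolysaccharide (LPS), and interferon-gamma at 10 ng/ml had been given to all of them for 4 h. Each group holds 1 library, so there is no replicate, no test and no p-value, and a difference between genotypes cannot be told apart from a difference between cultures.

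Macrophages sense LPS, a component of the bacterial outer membrane, through Toll-like receptor 4, and NF-kappaB and AP-1 factors then drive inflammatory genes. Interferon-gamma, a cytokine of T cells and natural killer cells, primes macrophages for this response. Batf2 is itself induced by both stimuli, and genes close to a targeted gene are inherited together with the targeted allele, so they are commonly read beside the target. The stretch of chromosome 19 around Batf2 is dense with genes of unrelated functions, which range from housekeeping (ribosome, vesicle traffic, splicing) to germline and endocrine roles.

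Levels are given as FPKM, the density of reads over a transcript, corrected for its length and for sequencing depth. The interval printed behind a level has the relative width of the deposited 95% interval and is centred on the FPKM, and it covers counting and read assignment within 1 library only. It was centred because some levels lay outside their own deposited interval, those of Batf2 and of 6 neighbours (Neat1, Slc25a45, Cdc42ep2, Znhit2, Arl2 and Ehd1) in at least 1 library. A gene was tested in a comparison when it reached 1 FPKM in a compared library. To pass the size rule it needed a difference of 1 or more in log2(FPKM + 1), which is 2-fold, and deposited intervals that did not overlap. Between KO and WT, 0 of the 37 genes changed their overlap when it was judged on the centred intervals instead. Overlap does not mean equal levels, because the interval propagated to a difference can leave out 0 where the intervals of the levels overlap. At 3 h this was so for Cdca5, with -0.36 (-0.69 to -0.02) for KO minus WT. It was also so for Frmd8, Slc25a45, Znhit2, Zfpl1 and Sf1, all lower in KO. All differences are in log2(FPKM + 1), where the added 1 shrinks the change of low genes, and folds are ratios of FPKM. Of the 37 genes, 24 lay upstream and 13 downstream of Batf2, which is read on the forward strand. The annotation gives 32 protein-coding genes, 3 miRNAs, 1 long intergenic RNA and 1 antisense RNA, and 27 of the genes reached 1 FPKM in a library. At the edges of the stretch, Neat1 and Rasgrp2 were the outermost expressed genes inside. Malat1 reaches across the upstream edge and had 24.5 FPKM in KO and 20.5 FPKM in WT at 3 h, and 23.5 FPKM in KO and 33.4 FPKM in WT at 0 h. Nrxn2 reaches across the downstream edge and stayed at or under 0.48 FPKM. Fewer cells of a type and less RNA per cell cannot be told apart in such bulk samples.

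The libraries had similar sums and differed in depth. The total FPKM was between 466419 and 476534, and the relative depth judged from interval widths of 4819 genes was 1.43 (KO at 3 h), 1.21 (KO at 0 h) and 1.09 (WT at 0 h), with WT at 3 h as 1. All 9 macrophage markers reached 1 FPKM in every library, with 1 (Cd14) past the size rule at 3 h at 624.6 FPKM in KO and 294.4 FPKM in WT, and no germ cell, T cell or B cell marker did in any. Neutrophil markers had a summed level of 4995 FPKM in KO and 5251 in WT at 3 h, and of 8622 in KO and 3483 in WT at 0 h. At 0 h 4 of their 7 measured members passed the size rule as higher in KO. Stromal markers summed to 50.9 FPKM in KO and 32.5 in WT at 3 h, and to 71.5 in KO and 32.2 in WT at 0 h, with 2 of 4 past the size rule as higher in KO at 0 h. No marker of either list was at 0. Of the dendritic cell markers 1 passed as lower in KO at each time (Clec9a at 3 h and Cd209a at 0 h), and of the mast cell and basophil markers 1 passed as higher (Gata2 at 3 h and Hdc at 0 h).

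Batf2 lies at chr19:6164458-6172475 (GRCm38/mm10), the locus of its RefSeq entry, from which all distances are counted. The GENCODE gene of Batf2 starts further upstream, at 6140983, within the locus of Arl2, so upstream distances would be shorter by that annotation. Batf2 had 10.1 FPKM in KO and 234.3 FPKM in WT at 3 h, and 0.26 FPKM in KO and 2.63 FPKM in WT at 0 h. The gene was thus 23.2-fold lower in KO at 3 h and 10.1-fold lower at 0 h. Reads at the locus in KO cells were still 38.9-fold higher at 3 h than at 0 h, and the labels do not give which part of the gene was deleted.

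Majin lies just downstream and is the only one of the neighbouring genes that was higher in KO by the size rule at 3 h. It encodes a protein of the inner nuclear membrane that anchors telomeres during meiosis and is otherwise known from germ cells. The gene is read in the same direction as Batf2 and occupies chr19:6184410-6224219, with 11935 bases between their edges. It had 6.91 FPKM (interval 6.03 to 7.80) in KO and 0.20 FPKM (0.061 to 0.34) in WT at 3 h. At 0 h it had 0.14 FPKM (0.044 to 0.24) in KO and 0.054 FPKM (0 to 0.11) in WT. Majin was above 1 FPKM in the KO library at 3 h alone. Its fold of KO over WT was 34.8 at 3 h, a difference of 2.72 on the log2(FPKM + 1) scale (2.49 to 2.95).

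At 0 h both Majin levels lay under 1 FPKM and their intervals overlapped, so no difference was detectable at this depth. Among the 9808 genes tested at 3 h Majin ranked 28 from the top, and among the 9732 with a level above 0 in both libraries it ranked 3. In KO cells its level was 48.3-fold higher at 3 h than at 0 h, while the ratio of the low WT levels was 3.65. The response to LPS, as log2(FPKM + 1), was 2.61 larger in KO than in WT (2.33 to 2.88). A single entry holds all reads of Majin, so no split between transcripts enters this value. Batf2 and Majin were both highest at 3 h, but Batf2 was higher in WT and Majin in KO.

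Whether the targeted allele bears on Majin was not tested. Other genes of its meiotic role give the setting. Of 8 listed genes of meiotic telomere attachment found in the files, Terb1, Terb2, Kash5 and Spdya stayed under 1 FPKM in every library, and the highest of these values was 0.031 FPKM. Terb1 and Terb2 encode the proteins that form a complex with Majin at telomeres. Terf1, a telomere-binding protein of all cells, had 2.01 FPKM in KO and 1.83 FPKM in WT at 3 h. None of the 4 tested at 3 h passed the size rule between genotypes. Of 14 genes of the meiotic chromosome axis and recombination, 13 stayed under 1 FPKM in every library and Syce2 alone was tested, with 4.28 FPKM in KO and 4.42 FPKM in WT at 3 h. The highest of 6 germ cell markers had 0.35 FPKM in a library.

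At 3 h 1 of the 27 tested neighbours was higher by the size rule in KO and 2 were lower, where 0.744% of all genes tested were higher and 0.724% lower. The 2 lower ones were Mrpl49 and Tm7sf2, both listed at 0 in KO at 3 h. At 0 h 0 of 26 passed in either direction, against 1.33% higher and 0.396% lower of all genes tested. With 27 genes these shares rest on single genes and were not compared by a test.

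**Figure D1:**
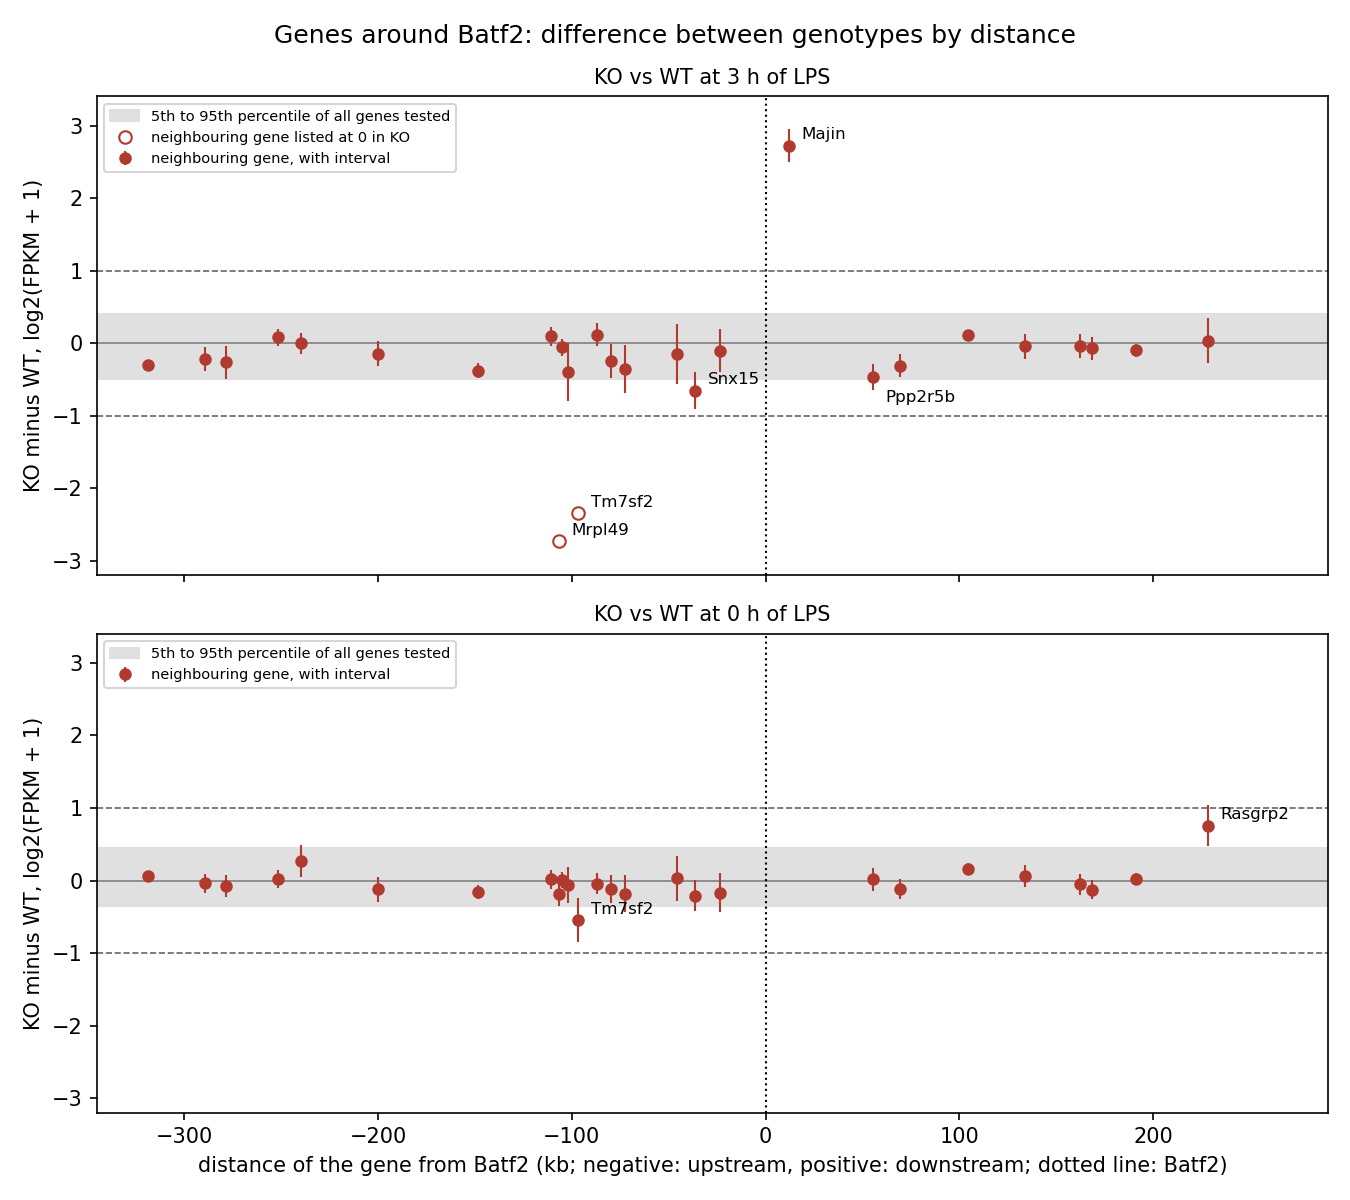
Difference between KO and WT (log2(FPKM + 1), vertical axis) against distance from Batf2 in kb (horizontal axis, upstream negative) for the neighbouring genes tested at 3 h (upper panel, 27 genes) and at 0 h (lower panel, 26 genes), 1 library per group. Bars are intervals propagated from the deposited ones, the grey band holds the 5th to 95th percentile of all genes tested, dashed lines mark the size rule, and open circles are genes listed at 0 in KO; Majin at 2.72 stands alone above the band at 3 h.

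Mrpl49 encodes a protein of the large subunit of the mitochondrial ribosome, which every respiring cell uses. It was listed at 0 FPKM in KO, with a deposited upper limit of 0.041, and at 5.62 FPKM (4.79 to 6.45) in WT at 3 h. At 0 h it had 16.3 FPKM (15.0 to 17.7) in KO and 18.8 FPKM (17.3 to 20.3) in WT, with overlapping intervals. Its locus at chr19:6053630-6057751, reverse strand, overlaps the end of Syvn1 by 89 bases. Tm7sf2, a sterol reductase of cholesterol synthesis at chr19:6062821-6067850, was listed at 0 FPKM in KO (deposited upper limit 0.042) and at 4.10 FPKM (3.13 to 5.06) in WT at 3 h. At 0 h Tm7sf2 had 3.92 FPKM (3.17 to 4.68) in KO and 6.19 FPKM (5.15 to 7.22) in WT, 1.58-fold lower in KO with intervals that did not overlap. It shares 9 bases with the neighbouring Vps51.

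Most genes listed at 0 in 1 library alone overlap another expressed gene. In KO at 3 h 20 genes of the whole tables were listed at 0 while they had at least 1 FPKM in each of the other 3 libraries. Of these, 16 (80%) overlap another expressed gene. Among genes with at least 1 FPKM in the same other 3 libraries, 9226 were above 0 in KO at 3 h, and 8.58% of these overlap one. Of the genes listed at 0 by the same rule, such an overlap was found for 10 of 11 in WT at 3 h, 3 of 3 in KO at 0 h and 6 of 6 in WT at 0 h. The part of overlap in the 0 of Mrpl49 and Tm7sf2 was not tested. The genes that they overlap, Syvn1 and Vps51, share the same bases and were above 0 in every library. Both had overlapping intervals between genotypes at 3 h: Syvn1 had 23.8 FPKM in KO and 22.3 FPKM in WT, and Vps51 had 11.6 FPKM in KO and 10.6 FPKM in WT. No fold is given for Mrpl49 and Tm7sf2 at 3 h, and without genes listed at 0 Majin was the only neighbour past the size rule.

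Mrpl49 shares its promoter with Fau, which encodes a ubiquitin-like protein fused to ribosomal protein S30 and starts 192 bases away on the other strand. Fau had 205.8 FPKM in KO and 214.7 FPKM in WT at 3 h, and 248.8 FPKM in KO and 247.7 FPKM in WT at 0 h, with overlapping intervals at both times. Both start sites lie in the Fau promoter window of RefSeq (GRCm38.p6), chr19:6057697-6057996 on the forward strand, which is shown because 1 of its genes was listed at 0 in a library and the other was not. Capitals mark the start base of Mrpl49 (the first single capital, read on the opposite strand), the cyclic AMP response element TGACGTCA and the start base of Fau (the last single capital).

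Fau promoter: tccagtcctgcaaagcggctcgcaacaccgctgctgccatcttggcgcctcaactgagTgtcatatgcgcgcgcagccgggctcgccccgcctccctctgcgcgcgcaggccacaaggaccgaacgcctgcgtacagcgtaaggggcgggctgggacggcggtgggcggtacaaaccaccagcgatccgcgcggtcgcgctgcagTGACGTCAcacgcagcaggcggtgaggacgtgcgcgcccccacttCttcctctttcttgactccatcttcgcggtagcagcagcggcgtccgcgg

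This window has 68.3% GC and 39 CpG. The element TGACGTCA, which reads the same on both strands, is in 1.79% of the 32851 promoter windows of the same length.

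Of the 5 genes nearest to Batf2 upstream, none passed the size rule between genotypes at either time. Arl2, a small GTPase that works in tubulin folding, lies 23321 bases away and had 14.9 FPKM in KO and 16.1 FPKM in WT at 3 h, and 15.8 FPKM in KO and 17.8 FPKM in WT at 0 h. Its intervals overlapped at both times. Snx15, a sorting nexin of endosomal traffic at 36243 bases, had 7.10 FPKM (6.07 to 8.12) in KO and 11.8 FPKM (10.2 to 13.3) in WT at 3 h. At 0 h it had 13.7 FPKM in KO and 16.0 FPKM in WT. Snx15 was 1.66-fold lower in KO at 3 h with intervals apart, a difference of -0.66 (-0.91 to -0.40) that is below the size rule. It was the lowest at 3 h among the neighbours above 0 in both libraries.

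Sac3d1, named for a domain shared with an mRNA export factor, had 2.69 FPKM in KO and 3.11 FPKM in WT at 3 h, and 6.23 FPKM in KO and 6.09 FPKM in WT at 0 h. Naaladl1, a peptidase known from the gut, had at most 0.13 FPKM in a library. Cdca5 encodes sororin, which protects cohesin on replicated chromosomes, and had 0.98 FPKM in KO and 1.53 FPKM in WT at 3 h. At 0 h Cdca5 had 5.60 FPKM in KO and 6.48 FPKM in WT, and the intervals overlapped at both times. Of the 5 nearest upstream genes, Snx15 alone had intervals that did not overlap between genotypes at 3 h, and none did at 0 h.

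Downstream, Majin is followed by Gpha2, a subunit of the glycoprotein hormone thyrostimulin, which was listed at 0 in all 4 libraries. Ppp2r5b, a regulatory B subunit of the phosphatase PP2A at 55292 bases, had 5.14 FPKM (4.61 to 5.66) in KO and 7.50 FPKM (6.71 to 8.29) in WT at 3 h. It had 9.60 FPKM in KO and 9.48 FPKM in WT at 0 h. The gene was 1.46-fold lower in KO at 3 h with intervals apart, while the 0 h levels overlapped. The response to LPS of Ppp2r5b was 0.49 lower in KO than in WT (-0.73 to -0.25, on the log2 scale), short of the size rule.

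Atg2a, a lipid transfer protein of autophagosome growth at 69193 bases, had 3.22 FPKM (2.92 to 3.53) in KO and 4.24 FPKM (3.82 to 4.67) in WT at 3 h, with intervals apart. At 0 h Atg2a had 7.03 FPKM in KO and 7.69 FPKM in WT. The next gene, Mir194-2, was listed at 0 in all 4 libraries.

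**Figure D2:**
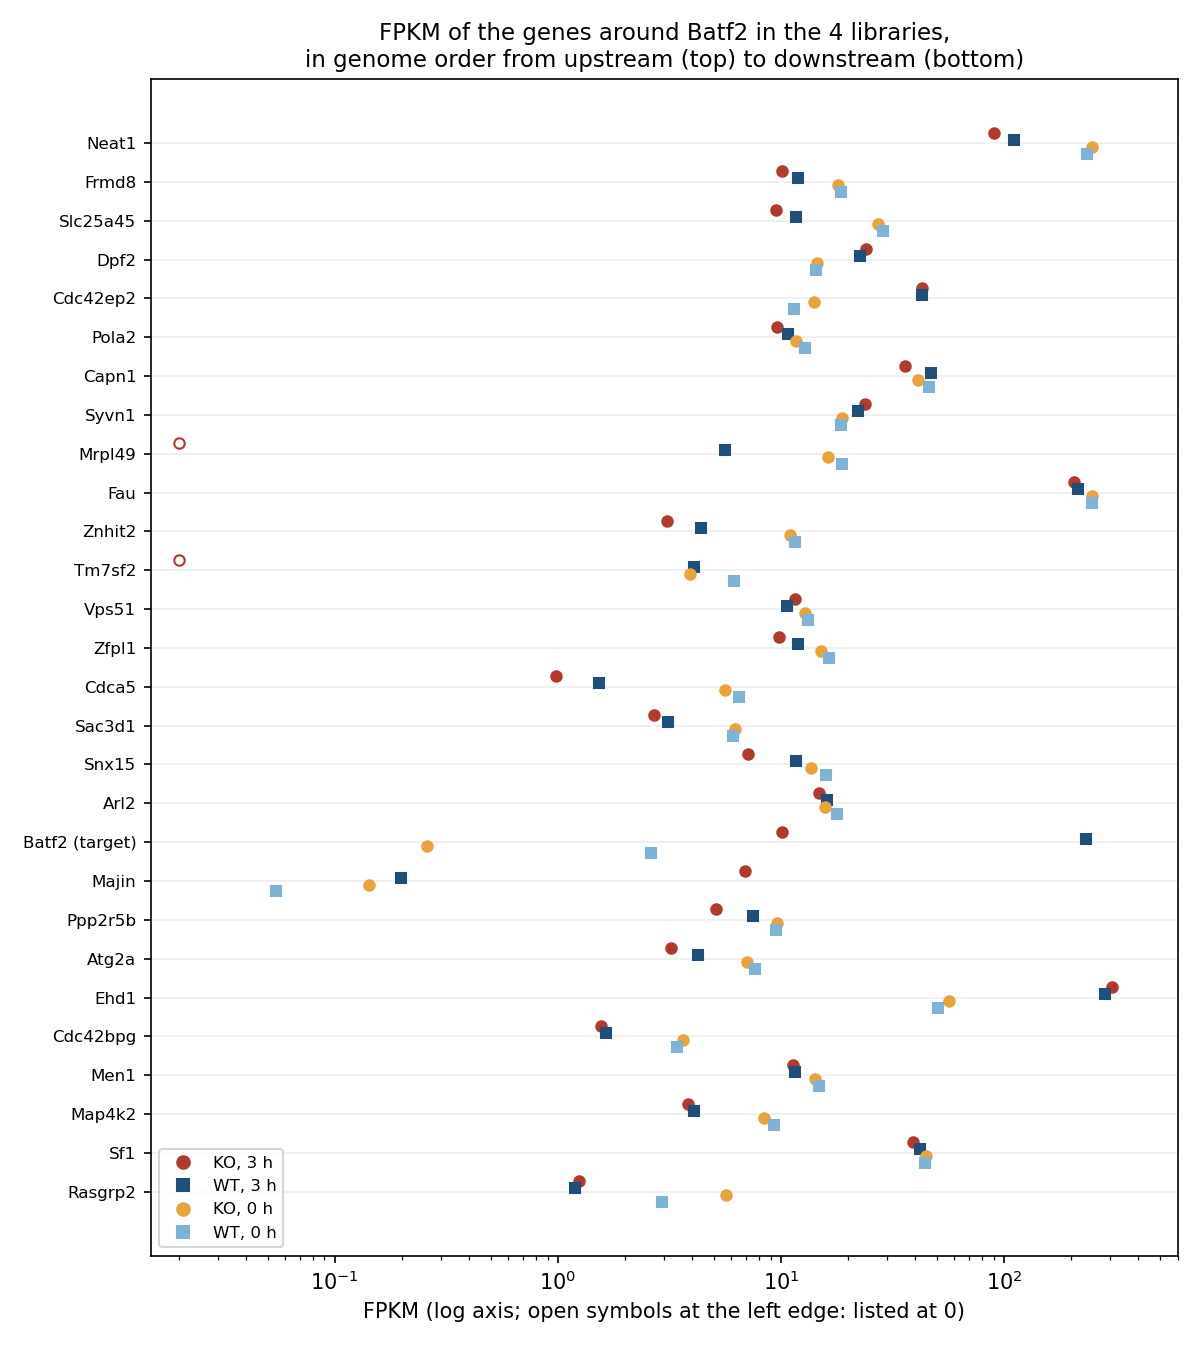
FPKM (horizontal log axis) of the 27 neighbouring genes that reached 1 FPKM and of Batf2, in genome order, with circles for KO and squares for WT at 3 h (dark) and 0 h (light), 1 library per point. Open circles at the left edge are listed at 0; in most rows the KO and WT points of a time lie close together, while Batf2 and Majin spread widely.

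The differences at 3 h did not become steadily smaller with distance from Batf2 on the upstream side. At 3 h the upstream genes under 50 kb had a median difference of -0.15 (3 genes), those from 50 to 150 kb of -0.36 (9 genes) and those over 150 kb of -0.18 (6 genes). Downstream, Majin alone lay under 50 kb with 2.72, and the median was -0.18 from 50 to 150 kb (4 genes) and -0.06 over 150 kb (4 genes). At 0 h the medians of these bins, where a gene was tested, lay between -0.17 and 0.04. Over all neighbours the median was -0.15 at 3 h, beside -0.07 over all genes tested and -0.10 over the rest of chromosome 19. Of the neighbours, 21 of 27 were below 0 at 3 h, as were 65.6% of all genes tested.

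The sign of the smallest differences depends on the scaling of the libraries. Rescaling every library by its median ratio over all genes added 0.09 to KO minus WT at 3 h on the log2 scale and left 17 of 27 neighbours below 0, and Cdc42ep2, Fau, Cdc42bpg and Men1 changed sign. At 0 h 15 of 26 were below 0 as deposited and 20 after rescaling. No share of all genes below 0 after rescaling is given for either time. Intervals were apart for 2 higher and 7 lower neighbours at 3 h, with 9.29% higher and 18.4% lower over all genes tested. The 2 higher ones were Majin and Ehd1. The lower ones were Neat1, Capn1, Mrpl49, Tm7sf2, Snx15, Ppp2r5b and Atg2a. At 0 h intervals were apart for 3 higher neighbours (Neat1, Ehd1 and Rasgrp2) and 2 lower ones (Capn1 and Tm7sf2), beside 10.7% higher and 10.1% lower over all genes.

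In the 5th to 95th percentile of all genes tested, -0.49 to 0.40 at 3 h, lay 23 of the 27 neighbours. Majin was above it and Mrpl49, Tm7sf2 and Snx15 were below. At 0 h 24 of 26 lay within -0.35 to 0.45, with Rasgrp2 above and Tm7sf2 below. Tm7sf2 was thus the one neighbour outside this range at both times, but its place at 3 h, like that of Mrpl49, rests on a level listed at 0 in KO.

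Rasgrp2, an exchange factor for RAP1 known from platelets and neutrophils, lies 228108 bases downstream. It had 1.24 FPKM in KO and 1.20 FPKM in WT at 3 h, and 5.67 FPKM (4.93 to 6.41) in KO and 2.95 FPKM (2.33 to 3.56) in WT at 0 h. Rasgrp2 was 1.93-fold higher in KO at 0 h with intervals apart, a difference of 0.76 that is short of the size rule, and at 3 h its intervals overlapped. It was the highest difference among the neighbours at 0 h. Neutrophil markers were higher in KO at 0 h as well: S100a8 had 4545 FPKM in KO and 1838 FPKM in WT, and the median difference of 7 markers was 1.24 at 0 h and -0.03 at 3 h. Their part in the Rasgrp2 level was not tested.

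Many of these genes had other levels at 3 h than at 0 h of LPS in both genotypes. In KO 3 of 27 tested neighbours rose by the size rule and 7 fell, beside 7.86% and 28.0% of all genes tested. In WT 2 of 26 rose and 6 fell, beside 7.57% and 23.2% of all genes. The KO libraries at 3 h and 0 h and the WT libraries also enter the comparisons of genotypes, so these counts are not independent of them. Rescaling shifted the log2 ratio of FPKM at 3 h to 0 h by 0.75 in KO and 0.63 in WT. After rescaling 14 of 27 neighbours were below 0 in KO and 11 of 26 in WT, where 22 and 21 were below 0 as deposited. The share of all genes below 0 after rescaling is not given.

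Ehd1, which shapes recycling endosomes, was the highest of the neighbours after LPS. It had 305.1 FPKM at 3 h and 56.5 FPKM at 0 h in KO, and 282.6 FPKM at 3 h and 50.5 FPKM at 0 h in WT. The gene rose 5.40-fold in KO and 5.60-fold in WT, and the difference between the responses was -0.05 (-0.14 to 0.04). Cdc42ep2, an effector of the GTPase CDC42 that acts on the actin cytoskeleton, had 42.8 FPKM at 3 h and 14.0 FPKM at 0 h in KO. In WT it had 42.9 FPKM at 3 h and 11.5 FPKM at 0 h. It rose 3.05-fold in KO and 3.74-fold in WT, so both neighbours that rose by the size rule in WT did so in KO as well.

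The genes that fell with LPS by the size rule in both genotypes were Neat1, Slc25a45, Mrpl49, Znhit2 and Cdca5, and other neighbours fell by less. Neat1, a long RNA of paraspeckles, was measured by 1 entry that spans 3177 bases. It had 90.6 FPKM at 3 h and 247.1 FPKM at 0 h in KO, and 111.5 FPKM at 3 h and 235.7 FPKM at 0 h in WT. It fell 2.73-fold in KO and 2.12-fold in WT. Neat1 was lower than WT in KO at 3 h, with a difference of -0.30, and higher at 0 h by only 0.07 (1.05-fold). Its intervals were apart at both times, and after rescaling the differences were -0.21 at 3 h and 0.04 at 0 h.

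Slc25a45, a carrier of the inner mitochondrial membrane, had 9.54 FPKM at 3 h and 27.4 FPKM at 0 h in KO, and 11.7 FPKM at 3 h and 28.8 FPKM at 0 h in WT. It fell 2.87-fold in KO and 2.47-fold in WT. Znhit2, a zinc finger protein that works with chaperones in complex assembly, had 3.10 FPKM at 3 h and 11.05 FPKM at 0 h in KO, and 4.41 FPKM at 3 h and 11.6 FPKM at 0 h in WT. It fell 3.57-fold in KO and 2.63-fold in WT, and its intervals overlapped between genotypes at both times. Mrpl49 fell 3.34-fold in WT and has no fold in KO, where it was listed at 0 at 3 h.

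Cdca5 fell 5.71-fold in KO and 4.22-fold in WT, the largest fall among the neighbours that reached 1 FPKM and were above 0 in the libraries compared. Map4k2, a kinase upstream of stress-activated MAP kinases, had 3.84 FPKM at 3 h and 8.41 FPKM at 0 h in KO, and 4.09 FPKM at 3 h and 9.27 FPKM at 0 h in WT. The difference of Map4k2 was -0.96 in KO and -1.01 in WT, so it passed the rule in WT and fell just short of it in KO. Rasgrp2 fell 4.56-fold in KO, while its 2.46-fold lower level in WT had a difference of -0.85 and did not pass. Tm7sf2, listed at 0 at 3 h, was the last of the 7 in KO. After rescaling, the falls of Neat1, Slc25a45 and Znhit2 no longer passed in either genotype, and those of Mrpl49 and Cdca5 did in both. Dpf2 then passed as higher in both genotypes, with 1.39 in KO and 1.22 in WT, and Syvn1 in KO alone with 1.04.

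Cdca5 starts 122 bases from Zfpl1, a zinc finger protein of the Golgi, on the other strand. Zfpl1 had 9.86 FPKM at 3 h and 15.1 FPKM at 0 h in KO, and 11.9 FPKM at 3 h and 16.5 FPKM at 0 h in WT, 1.53-fold lower at 3 h in KO and 1.39-fold in WT. After rescaling, Zfpl1 was higher at 3 h than at 0 h, by 0.13 in KO and 0.15 in WT on the log2 scale, while Cdca5 was still lower, with -1.23 in KO and -1.09 in WT. The RefSeq window of Cdca5, chr19:6084847-6085146 (GRCm38.p6, forward strand), holds both start sites and is shown for that reason. The first capital is the start base of Zfpl1, read on the opposite strand, and the second that of Cdca5.

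Cdca5 promoter: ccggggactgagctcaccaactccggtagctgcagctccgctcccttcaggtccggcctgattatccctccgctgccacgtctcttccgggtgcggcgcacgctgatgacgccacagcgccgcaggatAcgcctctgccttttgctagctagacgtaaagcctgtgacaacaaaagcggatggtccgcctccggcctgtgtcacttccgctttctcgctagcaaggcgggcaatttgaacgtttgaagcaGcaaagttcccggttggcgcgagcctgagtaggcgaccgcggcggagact

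The cyclic AMP response element, AP-1, the interferon-stimulated response element and the kappaB motif were searched on both strands, and none was found in this window. The neighbours had 30 promoter windows from 26 genes. AP-1 (TGANTCA, in 7.81% of all windows) was found in 1 of them, that of Sac3d1, and the interferon-stimulated response element (3.44%) in that of Gpha2. The kappaB motif (1.47% of all windows) was found in 0 of the 30. A match is a stretch of letters and no measured binding. The median window of the neighbours had 61.5% GC and 18 CpG, beside 52.7% GC and 7 CpG over all windows.

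**Figure D3:**
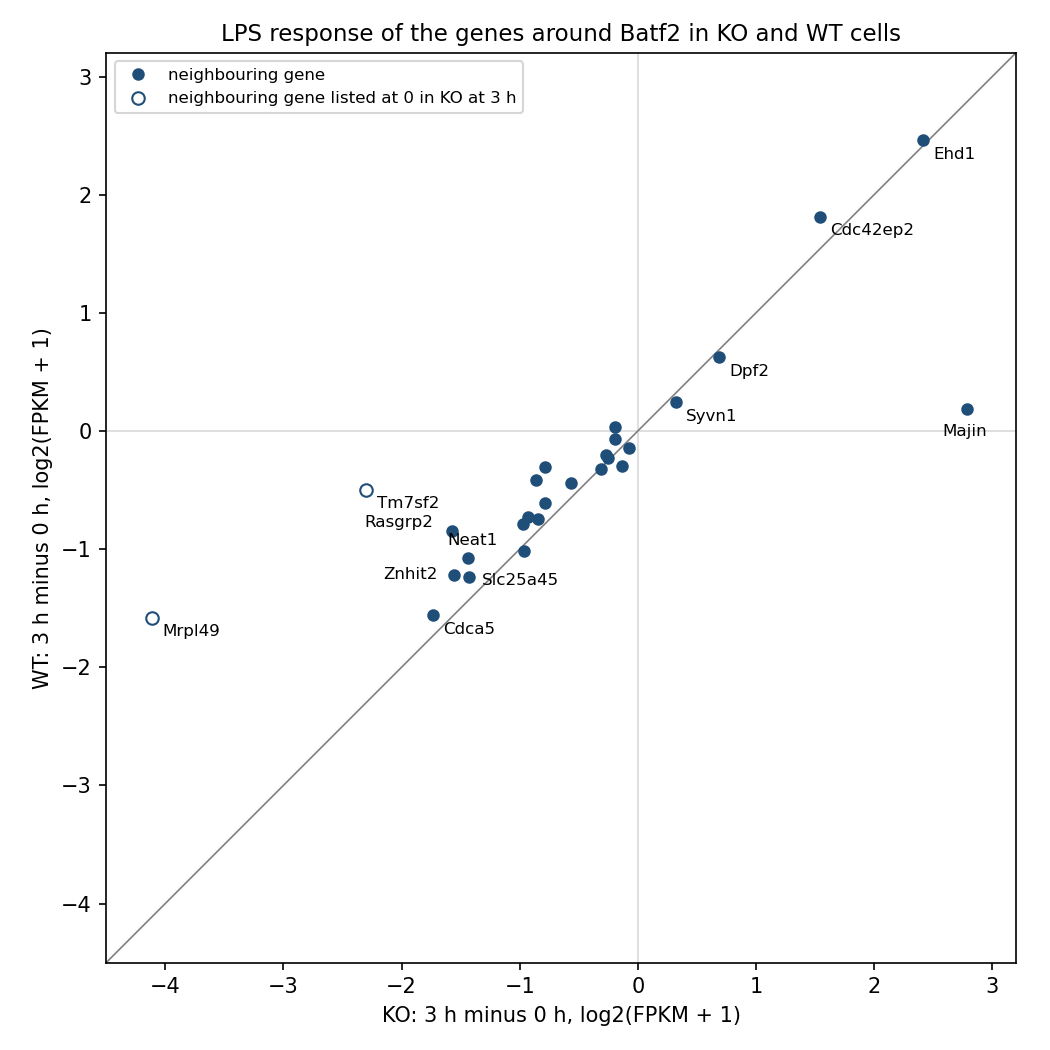
Response to LPS (3 h minus 0 h, log2(FPKM + 1)) in KO on the horizontal axis and in WT on the vertical axis for the 27 neighbouring genes that reached 1 FPKM, with the line of equal responses and open circles for genes listed at 0 in KO at 3 h. Ehd1 and Cdc42ep2 lie high in both genotypes, and Majin stands off the line at 2.79 in KO and 0.18 in WT.

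The responses of the genotypes differed by the rule for 3 neighbours, 1 higher (Majin) and 2 lower (Mrpl49 and Tm7sf2) of 27, beside 0.953% higher and 1.46% lower over all genes tested. Both lower ones were listed at 0 in KO at 3 h, and without them Majin was the only one. The median difference between responses was -0.18 over the neighbours and -0.08 over all genes.

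The remaining neighbours, by role, showed differences between genotypes within 0.5 on the log2 scale. Of the genes for nuclear functions, Pola2, the B subunit of DNA polymerase alpha, had 9.63 FPKM in KO and 10.8 FPKM in WT at 3 h, and 11.7 FPKM in KO and 12.8 FPKM in WT at 0 h. Men1, which encodes the chromatin adaptor menin, had 11.3 FPKM in KO and 11.6 FPKM in WT at 3 h, and 14.2 FPKM in KO and 14.8 FPKM in WT at 0 h. Neither gene had intervals apart at either time. Dpf2, a subunit of BAF chromatin remodellers, had 24.0 FPKM in KO and 22.6 FPKM in WT at 3 h, and 14.6 FPKM in KO and 14.3 FPKM in WT at 0 h. Sf1, which binds the branch point in splicing, had 39.1 FPKM in KO and 42.0 FPKM in WT at 3 h, and 44.9 FPKM in KO and 44.2 FPKM in WT at 0 h. The intervals of Dpf2 and Sf1 overlapped between genotypes at both times as well.

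Of the genes for membranes and proteolysis, Capn1, a calcium-activated protease, had 36.0 FPKM (34.2 to 37.8) in KO and 47.2 FPKM (44.8 to 49.5) in WT at 3 h, and 41.2 FPKM in KO and 46.1 FPKM in WT at 0 h. It was 1.31-fold lower in KO at 3 h and 1.12-fold lower at 0 h, with intervals apart at both times. Syvn1, a ubiquitin ligase of the endoplasmic reticulum, had 18.9 FPKM in KO and 18.6 FPKM in WT at 0 h, and Vps51, a subunit of Golgi tethers, had 12.8 FPKM in KO and 13.3 FPKM in WT at 0 h. Both had overlapping intervals between genotypes at 3 h and at 0 h. Frmd8, which stabilises iRhom proteins at the cell surface, had 10.1 FPKM in KO and 11.9 FPKM in WT at 3 h, and 18.1 FPKM in KO and 18.6 FPKM in WT at 0 h. Cdc42bpg, a kinase that acts downstream of CDC42, had 1.57 FPKM in KO and 1.65 FPKM in WT at 3 h, and 3.63 FPKM in KO and 3.43 FPKM in WT at 0 h. The intervals of Frmd8 and Cdc42bpg overlapped between genotypes at both times.

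Under 1 FPKM in every library were 10 of the 37 genes. Tigd3, Slc22a20, Naaladl1 and Pygm, the muscle glycogen phosphorylase, had at most 0.38 FPKM. Gm10814, Tmem262, Gpha2, Mir6988, Mir194-2 and Mir192 were listed at 0 in all 4. Mature miRNAs were not measured here. Mir192 and Mir194-2 are neighbours of each other and known from gut and liver.

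The members of the pathways to which these genes belong were listed as partners. Across 19 lists, 0 tested partners passed the size rule between KO and WT at 3 h and 1 did at 0 h, Ehd2, with 2.72 FPKM in KO and 0.59 FPKM in WT. Over all genes tested, 1.47% passed at 3 h and 1.72% at 0 h, so few partners would pass at these shares. The counts were not compared by a test. Sun2 and Smarca4 were left out where an entry lacked the status OK. Tm7sf2 works in sterol synthesis, and of 9 other enzymes of that pathway 0 passed, with a median of -0.50 at 3 h and -0.42 at 0 h. Lbr, which has the same reductase activity as Tm7sf2, had 4.71 FPKM in KO and 4.85 FPKM in WT at 3 h. This list had the lowest median of the 19 at 3 h, and its genes did not pass the size rule.

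Over the other 18 lists the median lay between -0.29 and 0.29 at 3 h and between -0.33 and 0.53 at 0 h. In the small ribosomal subunit, to which Fau contributes, the median over 5 partners was -0.06 at 3 h and 0.16 at 0 h. For the paraspeckle proteins (4 genes, with Nono at 81.4 FPKM in KO and 83.2 FPKM in WT at 3 h) it was -0.10 at 3 h and 0.02 at 0 h. For the cohesin genes it was -0.05 at 3 h and -0.04 at 0 h.

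For 8 neighbours the level is a sum over entries, and for several of them the split between entries changed between libraries. Capn1 has a pair of entries that start at different sites. Entry 1 had 26.4 FPKM in KO and 41.6 FPKM in WT at 3 h, and 36.6 FPKM in KO and 31.7 FPKM in WT at 0 h. Entry 2 had 9.57 FPKM in KO and 5.54 FPKM in WT at 3 h, and 4.60 FPKM in KO and 14.4 FPKM in WT at 0 h. The order of the genotypes within each entry was opposite at the 2 times, while the sum was lower in KO at both. For Fau 1 entry was listed at 0 in KO at 3 h and had 38.4 to 67.2 FPKM in the other libraries. Such splits are estimates of 1 library each, and all other values of these genes are sums over entries.

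**Figure D4:**
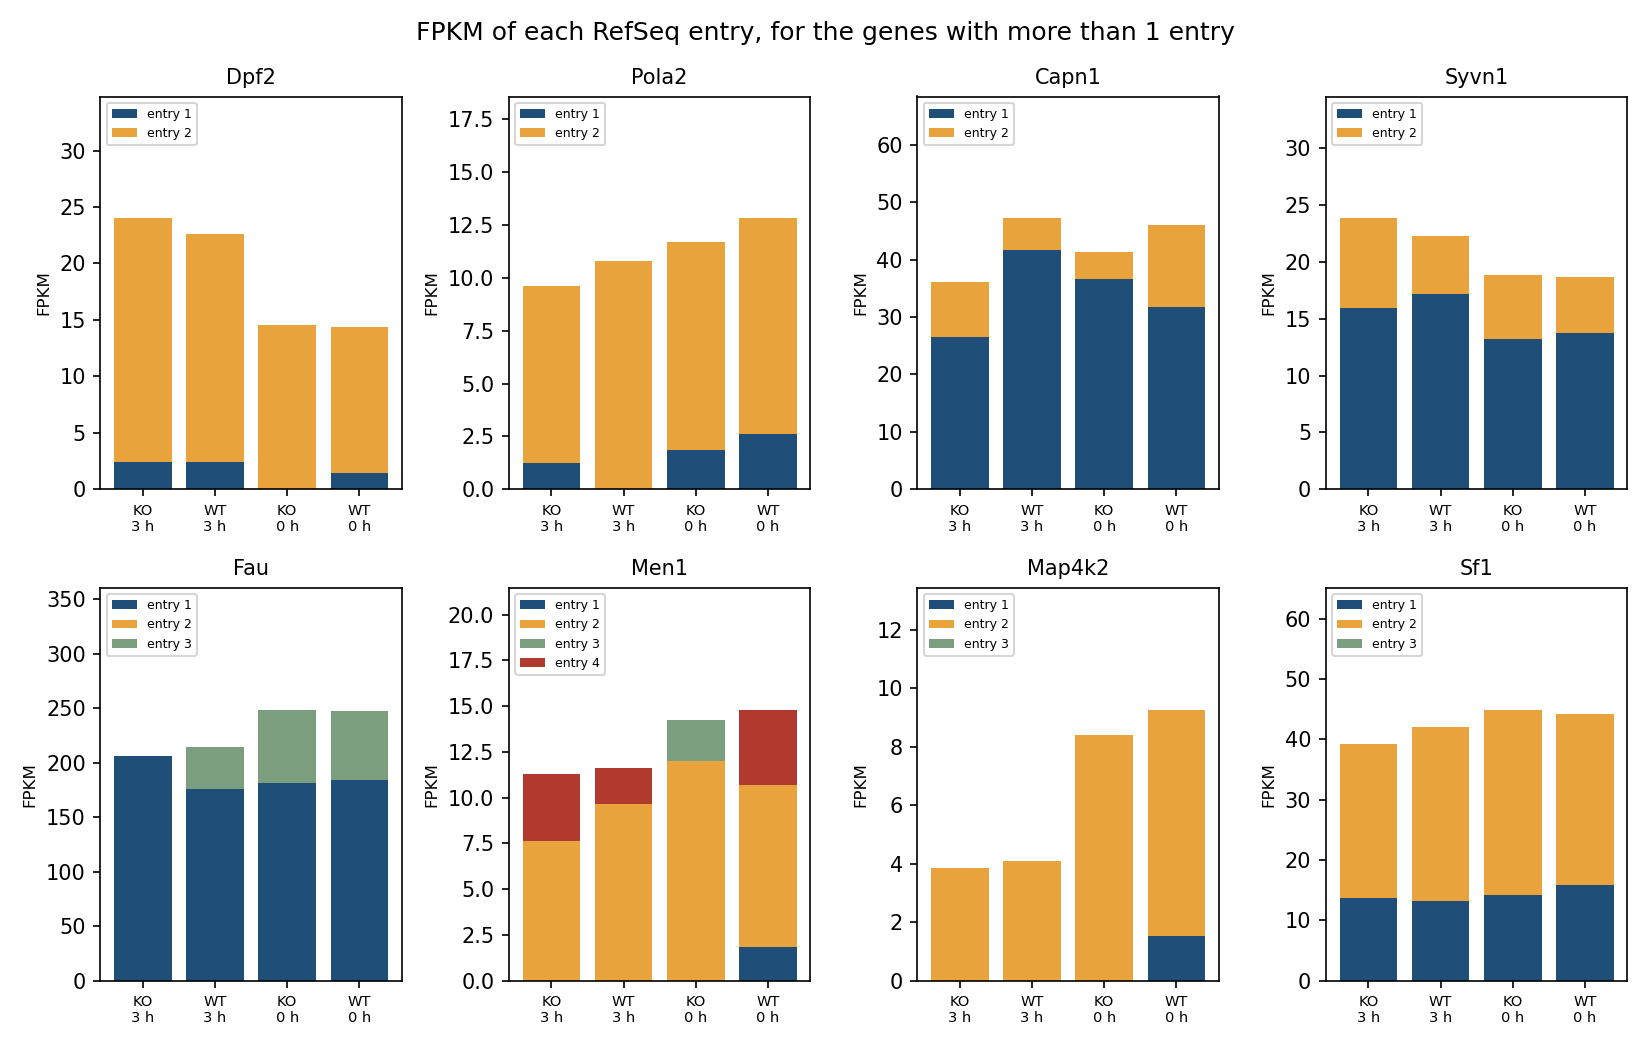
FPKM (vertical axis) of each entry, stacked, in the 4 libraries (horizontal axis) for the 8 neighbouring genes with more than 1 entry. The make-up of the stacks of Capn1, Fau, Men1 and Map4k2 differs between libraries, while that of Sf1 is similar in all 4.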

How the data were processed

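Per the labels' protocols, total RNA of each culture was made into a strand-specific library and read as single reads. The submitters' processing notes name TopHat2, Bowtie and SAMtools for alignment to mm9 and Cufflinks for the levels, without versions. The deposited values are FPKM by the authors, with 95% limits and a status for each RefSeq entry and no further normalization. Each of the 37 loci fell within its GRCm38 gene once 1 was added to the start, so coordinates are given as GRCm38/mm10.

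Entries of the 4 tables were joined by identifier and locus and named from RefSeq (33437 of 33841), then GENCODE (187). FPKM was summed per symbol. Printed intervals keep the relative width of the deposited ones and are centred on the FPKM, combined in quadrature over entries. Differences are log2(FPKM + 1) with a pseudocount of 1. The LPS response of KO minus that of WT had to reach 1 in size with a propagated interval that leaves out 0. The size rule was also run on simulated libraries with counting error only, which cannot show how it handles differences between cultures. Shares over all genes used the whole tables. Python 3.11.15 with pandas 2.3.3, numpy 2.4.6 and matplotlib 3.10.9 was used.

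The genes, the partner lists and the rules were chosen with earlier results of these data known. Named in full were genes past the size rule between genotypes, Majin and the 5 nearest genes on each side, and other expressed neighbours by value, with up to 3 examples per partner list. Examples among partners, the promoter windows shown, Rasgrp2, Capn1, Ehd1 and other genes singled out for their values were picked after the values were seen. Motifs were searched in RefSeq promoter windows of 300 bases, and some results of the motif search and the partner lists are not reported here. Intervals cover counting and read assignment error only. Alternatives changed the pseudocount, the filter on low values, the scaling, the choice of entry, the size rule, the interval rule and the distance.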

Additional observations from a re-analysis of the deposited data

How the results depend on the processing

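Of 99 values under another setting, 76 stayed close to the value reported and 23 moved, and 1 of these, a median, changed sign. No paired analysis was possible because each group holds 1 library. For Majin, KO minus WT at 3 h was 4.55 with a pseudocount of 0.1, 1.20 with 5 and 3.01 after rescaling by the median ratio, its value at 0 h was 0.65 with a pseudocount of 0.1, and its difference between LPS responses was 3.90, 1.17 and 2.92 under the same 3 settings. Majin passed the size rule at 3 h under all of these. Between KO and WT, a rule of 1.5-fold gave 1 neighbour at 0 h (Rasgrp2). At 3 h it gave 4, 1 higher and 3 lower, with Snx15 added to Majin, Mrpl49 and Tm7sf2. Leaving out genes listed at 0 gave 1 at 3 h. This last setting, and intervals centred on the FPKM, were added after the data were seen. Responses differed for 1 neighbour with a pseudocount of 5 and for 1 without genes listed at 0. Neighbours past the size rule after LPS in KO numbered 6 with a pseudocount of 5, 18 with 1.5-fold and 6 within 150 kb. In WT they numbered 5 with a pseudocount of 5, 5 after rescaling, 14 with 1.5-fold and 4 within 150 kb. By the main rule 35.8% of all genes tested passed after LPS in KO and 30.8% in WT. No share over all genes is given for any changed rule, so these counts are no result about the neighbours. The median response in KO was -0.44 with a pseudocount of 5, -0.31 with no filter, -0.57 with a minimum of 5 FPKM and -0.087 after rescaling. In WT rescaling turned the sign of the median response, to 0.17 from -0.43 as deposited. The cause of these shifts was not tested. With 1 library per group, intervals hold counting error only, levels under 1 FPKM rest on few reads, and a gene listed at 0 may be a failed estimate.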
